A study of Mus musculus with 27 samples.

Results

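Histone genes were examined in muscle RNA from mice injured with cardiotoxin (CTX), a toxin of cobra venom that destroys myofibres, after which the muscle regenerates. Members were the entries of the deposited tables whose gene names carry the current histone symbols, H1f, H2ac, H2bc, H3c and H4c with a number, H2ax and H2az, H3f3 and Macroh2a. The rule found 84 of the 55852 entries of the injured table. Of these, 65 were replication-dependent genes, 13 were replacement variants and 6 were pseudogenes, an antisense gene and H3f3c, which were counted apart. The 24 injured libraries came from WT muscle and muscle labelled Gsdme KO at 1, 4, 7 and 14 days after CTX, written D1 to D14, and each genotype had 3 of them at each time. A separate table with 55677 entries held 3 WT control libraries, taken as uninjured muscle, and the 3 WT D1 libraries again. The study describes male C57BL/6J mice, a Gsdme deletion in all tissues and injection into the gastrocnemius, with the contralateral muscle as control, whereas the deposited design text names thigh muscle. Ages and pooling were not given in the sources used here. Gsdme encodes gasdermin E, which forms pores in the cell membrane after cleavage by a caspase. The sample titles say KO and the genotype field says knockdown, and KO refers here to the libraries labelled KO.

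Histones package DNA into nucleosomes, each built from pairs of the core histones H2A, H2B, H3 and H4, with the linker histone H1 at the DNA entry and exit. The replication-dependent genes lie in clusters, have no introns and are transcribed in S phase, when new DNA must be packaged, and their mRNAs end in a conserved stem-loop instead of a poly(A) tail. The replacement variants lie outside the clusters, usually make polyadenylated mRNA and are expressed throughout the cell cycle, so that they provide histones in cells that no longer divide. Injured muscle holds both kinds of cells, with invading leukocytes and dividing myogenic cells in the first days and postmitotic myofibres later. Per the labels, the libraries were made with mRNA enrichment or rRNA depletion. Which of the methods was applied to which library was not given, so that the recovery of mRNAs without a poly(A) tail cannot be judged from these levels.

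The histone 3′ stem-loop, which binds the stem-loop binding protein Slbp and directs the cut that ends the mRNA, was found mostly in the replication-dependent class. All 84 members were matched by Ensembl ID to transcripts of GENCODE release 21 for mouse (assembly GRCm38). The stem-loop was found in the annotated transcripts of 43 of the 65 replication-dependent genes (66.2%) and of 1 of the 13 replacement variants, H2ax, against 74 of all 55450 GENCODE genes (0.133%). It is shown for genes of each family and for H2ax, with the stem-loop of 16 bases in capitals between up to 5 bases of flank on each side.
H1f2: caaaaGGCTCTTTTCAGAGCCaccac
H2ac19: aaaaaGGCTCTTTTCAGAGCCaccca
H2bc6: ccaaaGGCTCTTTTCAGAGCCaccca
H3c15: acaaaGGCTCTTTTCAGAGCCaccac
H4c8: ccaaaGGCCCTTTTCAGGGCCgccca
H4c9: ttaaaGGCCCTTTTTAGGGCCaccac
H4c17: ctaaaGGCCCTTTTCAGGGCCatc
H2ax: acaaaGGCCCTTTTAAGGGCCaccac
The form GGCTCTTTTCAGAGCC was carried by 24 of the 43 genes, from the H1, H2A, H2B and H3 families. The 11 H4 genes with a stem-loop used other forms, and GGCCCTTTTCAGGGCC was carried by 6 of them. The annotated transcript ran on for 100 bases or more past the stem-loop in 20 of the 43 genes, as in H1f2 with 840 further bases and H2ac6 with 2010, and for 35 bases in H2ac18 and H2ac19. No match was found in the annotated transcript of H2bc4, which has 1156 bases, or in those of H1f0, H1f10, H2az1, H2az2, H3f3a, H3f3b, Macroh2a1 and Macroh2a2. Some replication-dependent annotations without a match are short, such as that of H2bc15 with 381 bases, and a missing match says only that the stem-loop is not in the annotated sequence.

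Promoter windows of 300 bases, from 250 bases before to 50 bases after the annotated start, were available from RefSeq (GRCm38.p6) for 58 replication-dependent genes and 10 replacement variants. Searched on both strands, CCAAT, the core of the CCAAT box, was in 86.2% of the replication-dependent windows, 60% of the replacement windows and 37.9% of all 27025 windows. TATAAA, a form of the TATA box, was in 58.6% of the replication-dependent windows, 1 of the 10 replacement windows and 14.2% of all windows. ATTTGCAT, the octamer bound by Pou2f1, was in 20.7% of the replication-dependent windows, that is in 6 of 17 H2A and 6 of 14 H2B windows and in no H1, H3 or H4 window, against 1.75% of all windows. AAACACA, known from H1 promoters, was in 5 of 6 H1 windows and in 7.14% of all windows. CCAAT was in every replication-dependent H1, H2A, H2B and H3 window and in 3 of 11 H4 windows. The windows of H1f2, the replication-dependent gene with the highest mean level, of H2ac6, a low gene whose values of 1 TPM or more were all at D1, and of H3f3b, the replacement variant with the largest difference between control and D1, are shown with the motifs on either strand in capitals.
H1f2 (chr13:23738557-23738856, plus strand): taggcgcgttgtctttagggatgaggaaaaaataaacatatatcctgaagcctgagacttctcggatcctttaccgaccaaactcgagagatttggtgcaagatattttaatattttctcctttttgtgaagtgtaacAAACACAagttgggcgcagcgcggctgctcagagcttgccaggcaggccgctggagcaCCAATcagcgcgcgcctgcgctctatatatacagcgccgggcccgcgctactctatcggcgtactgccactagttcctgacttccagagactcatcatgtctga
H2ac6 (chr13:23683910-23684209, minus strand): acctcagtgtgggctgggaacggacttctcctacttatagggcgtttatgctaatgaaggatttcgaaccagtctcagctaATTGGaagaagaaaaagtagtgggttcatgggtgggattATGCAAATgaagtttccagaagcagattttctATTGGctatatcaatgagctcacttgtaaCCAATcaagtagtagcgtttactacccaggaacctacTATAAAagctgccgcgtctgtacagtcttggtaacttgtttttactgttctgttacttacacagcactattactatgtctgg
H3f3b (chr11:116024455-116024754, minus strand): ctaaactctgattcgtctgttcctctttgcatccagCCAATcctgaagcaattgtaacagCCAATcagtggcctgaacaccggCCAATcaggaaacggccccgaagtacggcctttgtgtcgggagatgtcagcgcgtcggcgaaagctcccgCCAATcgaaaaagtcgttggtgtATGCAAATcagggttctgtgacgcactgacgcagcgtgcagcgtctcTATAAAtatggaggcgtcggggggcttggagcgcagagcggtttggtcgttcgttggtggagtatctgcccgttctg
The H3f3b window held the CCAAT box, the TATA box and the octamer, as did that of H2ac6. Neither the TATA box nor the octamer was found in the window of another replacement variant. A match is a description of the letters and not of a bound site.

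H1f2 lies at chr13:23738808-23740367, H2bc4 at chr13:23684199-23692908, H4c8 at chr13:23531050-23531519, H4c9 at chr13:22040636-22041362, H2ac19 at chr3:96239749-96240276 and H2ac18 at chr3:96245497-96246082, and H3f3b and H3f3a lie at chr11:116021912-116027962 and chr1:180800832-180813943 (GRCm38). H2bc4 starts inside the H2ac6 promoter window shown above and runs in the opposite direction. The replication-dependent genes fell on 2 chromosomes, 55 on chromosome 13 between positions 21715763 and 23934851 and 10 on chromosome 3 between 96219865 and 96270132 (GRCm38), while the replacement variants were spread over 8 chromosomes. Near-identical copies limit what single genes can show. The annotated transcripts of H2ac18 and H2ac19 were identical over all 528 aligned bases, and those of H4c17 and H4c18 over 401 of 402. Reads from the shared bases of such pairs can be assigned to either copy, so that the levels of the single copies are uncertain. H1f4 and H2bc6, on the same strand, share 496 bases of their gene spans. H1f9, a linker histone known from spermatids, lies with all 864 bases inside the span of Sgca on the opposite strand. Sgca encodes a sarcoglycan of the muscle membrane and was at 92.0 to 227 TPM in the injured libraries, and without a stated use of strand the reads of both genes cannot be told apart.

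The levels are TPM, a share of transcripts corrected for gene length, and TPM carries no read number, so that depth and counting error are unknown. Gsdme was lower in every KO library than in every WT library at D1, D4 and D7 (0.95 to 2.17 TPM in KO and 1.80 to 4.85 TPM in WT over these days, with no overlap within a day), and at D14 the groups overlapped (1.27 to 1.96 TPM in KO and 1.46 to 2.26 TPM in WT). KO D4 replicate 2 stood apart from the other KO D4 libraries, with summed leukocyte markers at 499 TPM against 3430 and 4107 TPM, and summed markers of myogenic cells at 56.1 TPM against 918 and 990 TPM. Summed markers of mature myofibres were at 44394 to 215689 TPM, so that muscle fibre RNA was present in every library. None of the 5 marker lists had a gene at 0 in all libraries. The study describes a sequencing batch with the control comparison and another with the time course, and the labels give no batch. The WT D1 libraries are in both tables, so that batch cannot be told apart from injury in the control comparison or from genotype at D1, depending on where they were sequenced. If they were sequenced with the controls, batch can also not be told apart from day in the WT step from D1 to D4. In bulk muscle, fewer cells of a type and less RNA per cell cannot be told apart.

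Few histone genes carried most of the signal. Of the 65 replication-dependent genes, 16 averaged 1 TPM or more over the 24 injured libraries and 6 averaged 20 TPM or more, the median mean was 0.33 TPM, and 2 were listed at 0 throughout. Of the 13 replacement variants, 10 averaged 1 TPM or more and 7 averaged 20 TPM or more. H1f2, H2ac19, H2bc4, H2ac18, H4c8 and H4c9 held from 83.3% to 94.0% of the replication-dependent sum in each injured library. The 39 members with at least 1 TPM in at least 3 injured libraries, 29 replication-dependent and 10 replacement, were tested. H2ac11, H3c7 and H3c8, with 4 libraries at 1 TPM or more, were the tested genes nearest the limit, and H2ac12, H2bc12, H2bc23, H2bc3, H3c10 and H3c6, with 2 such libraries, were just outside. The untested replacement variants were H1f7, H1f8 and Macroh2a3, none above 0.62 TPM, and no gene counted apart was tested.

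Summed over all 65 genes, the replication-dependent level was 659 to 967 TPM in WT muscle at D1, 374 to 590 TPM at D4, 478 to 559 TPM at D7 and 433 to 537 TPM at D14. The KO sums were 477 to 614 TPM at D1, 433 to 725 TPM at D4, 494 to 652 TPM at D7 and 519 to 613 TPM at D14. The WT D1 sums lay above all other sums of the WT series and above all KO sums at D1, and the highest KO D4 value was that of replicate 2. The 59 genes outside the leading 6 summed to 69.1 to 113 TPM in WT muscle at D1 and 26.2 to 40.3 TPM at D14. Replacement variants summed to 749 to 1391 TPM in WT muscle at D1, 939 to 1815 TPM at D4, 869 to 1029 TPM at D7 and 518 to 625 TPM at D14. In KO muscle the replacement sums were 908 to 1380 TPM at D1, 587 to 1188 TPM at D4, 646 to 876 TPM at D7 and 561 to 650 TPM at D14. The D14 sums of both genotypes lay below every sum of D1 in the same genotype. In the separate control table, control muscle held 431 to 497 TPM of replication-dependent and 488 to 527 TPM of replacement transcripts. By family, most of the listed H3 level was that of the replacement genes, though the recovery of replication-dependent mRNAs without a poly(A) tail is unknown. The replication-dependent H3 sum stayed between 10.2 and 40.5 TPM in the injured libraries, while H3f3a and H3f3b together were at 285 to 1019 TPM.

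**Figure D1:**
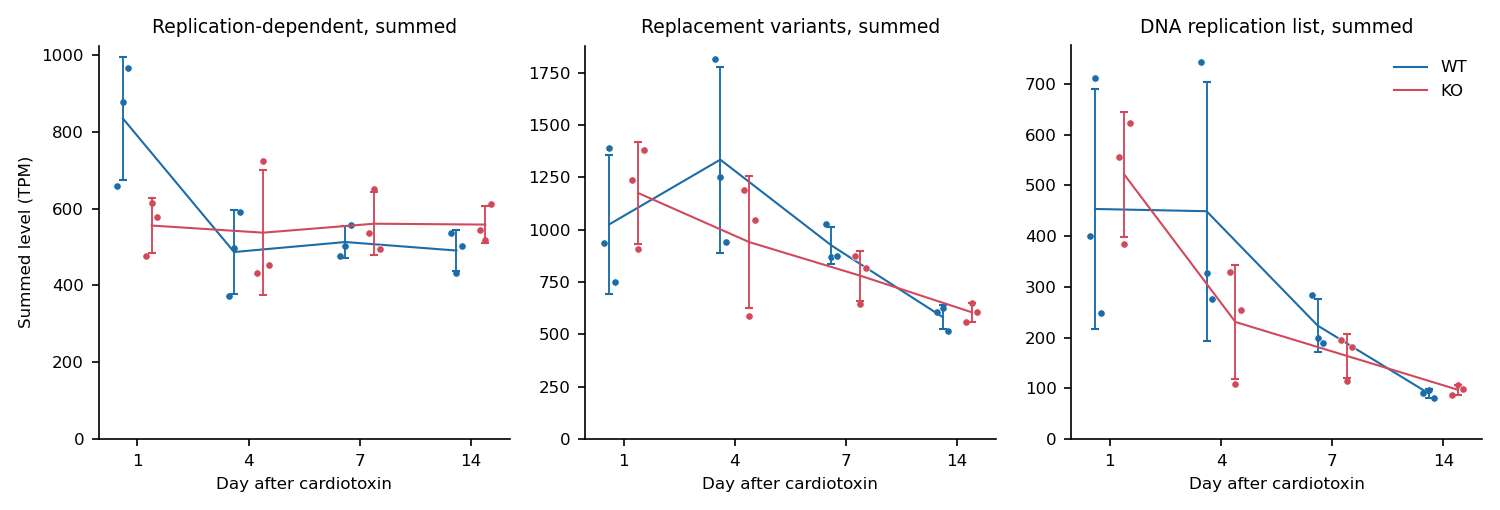
Summed levels (TPM, linear axis from 0) of the replication-dependent genes, the replacement variants and 30 DNA replication genes by day after CTX, with days spaced evenly. Points are libraries, lines join group means and bars are SD (n = 3), with WT in blue and KO in red. The replication-dependent sum of WT muscle was highest at D1 (659 to 967 TPM), while the DNA replication sum declined to 81.5 to 106 TPM in the D14 libraries of both genotypes.

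H1f2, a linker histone, was the most abundant replication-dependent gene. H1f2 was at 163, 303 and 345 TPM in the WT libraries at D1, 81.02, 126 and 159 TPM at D4, 95.99, 109 and 121 TPM at D7 and 128, 87.9 and 103 TPM at D14. KO muscle held H1f2 at 93.97, 152 and 129.6 TPM at D1, 91.9, 149 and 88.4 TPM at D4, 111, 139 and 91.2 TPM at D7 and 121, 121 and 139.9 TPM at D14. WT D1 replicates 2 and 3 stood above every other library, and the WT D1 libraries all lay above the KO D1 libraries. Control muscle held H1f2 at 90.9, 95.2 and 106 TPM. H2ac19, an H2A gene of the chromosome 3 cluster, was also highest at D1 by the WT group means. H2ac19 was at 106, 157 and 166 TPM in the WT libraries at D1, 45.5, 74.8 and 84.2 TPM at D4, 65.9, 84.5 and 88.2 TPM at D7 and 111, 93.5 and 81.2 TPM at D14. KO muscle held H2ac19 at 110.3, 129 and 100.2 TPM at D1, 76.5, 168 and 74.02 TPM at D4, 110.4, 140.3 and 90.6 TPM at D7 and 93.4, 102 and 134 TPM at D14. Control muscle held H2ac19 at 70.8, 100.3 and 81.01 TPM. Each WT D1 library lay above each WT D4 library, and KO D4 replicate 2 was the highest of all. H2ac18 is the copy whose annotated transcript of 586 bases is identical to that of H2ac19 over all 528 aligned bases. H2ac18 was at 98.8, 94.8 and 131 TPM in the WT libraries at D1, 46.5, 64.9 and 94.1 TPM at D4, 81.4, 73.9 and 77.9 TPM at D7 and 86.2, 59.5 and 82.6 TPM at D14. KO muscle held H2ac18 at 52.5, 67.1 and 94.8 TPM at D1, 55.1, 87.5 and 71.4 TPM at D4, 78.9, 95.7 and 66.6 TPM at D7 and 84.6, 63.8 and 82.1 TPM at D14. Control muscle held H2ac18 at 95.9, 91.7 and 99.8 TPM. In WT muscle all D1 values of H2ac18 lay above those of the later days, with 94.8 TPM at D1 against 94.1 TPM at D4 as the closest pair, and the KO days overlapped.

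H2bc4, an H2B gene with a long annotated transcript and no stem-loop match, followed another course. H2bc4 was at 109.8, 110.5 and 122 TPM in the WT libraries at D1, 100.1, 128 and 128 TPM at D4, 101, 102 and 100.4 TPM at D7 and 76.3, 60.95 and 71.4 TPM at D14. KO muscle held H2bc4 at 73.7, 97.2 and 89.6 TPM at D1, 126, 102 and 127 TPM at D4, 96.5, 96.6 and 101 TPM at D7 and 78.8, 93.7 and 78.7 TPM at D14. Control muscle held H2bc4 at 66.2, 71.4 and 65.8 TPM. All D14 values lay below all D4 and D7 values in each genotype. The H4 genes H4c8 and H4c9 had their lowest WT group means at D4. H4c8 was at 68.2, 53.5 and 51.3 TPM in the WT libraries at D1, 11.3, 28.9 and 46.7 TPM at D4, 65.6, 60.8 and 85.9 TPM at D7 and 73.3, 68.9 and 76.5 TPM at D14. KO muscle held H4c8 at 52.1, 67.3 and 39.9 TPM at D1, 23.98, 124 and 28.1 TPM at D4, 66.2, 84.8 and 69.4 TPM at D7 and 81.9, 58.5 and 89.9 TPM at D14. Control muscle held H4c8 at 50.7, 60.04 and 62.6 TPM. KO D4 replicate 2 held the highest H4c8 level of the injured libraries, while the other KO D4 libraries held the lowest levels in KO muscle. H4c9 was at 43.3, 47.2 and 52.8 TPM in the WT libraries at D1, 26.6, 23.9 and 24.4 TPM at D4, 25.4, 27.7 and 34.8 TPM at D7 and 28.7, 36.02 and 48.8 TPM at D14. KO muscle held H4c9 at 36.1, 37.2 and 51.96 TPM at D1, 16.7, 42.5 and 26.6 TPM at D4, 24.3, 43.5 and 32.4 TPM at D7 and 41.96, 41.5 and 40.1 TPM at D14. Control muscle held H4c9 at 22.4, 44.2 and 34.4 TPM. The WT D1 and WT D4 values of H4c9 did not overlap.

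**Figure D2:**
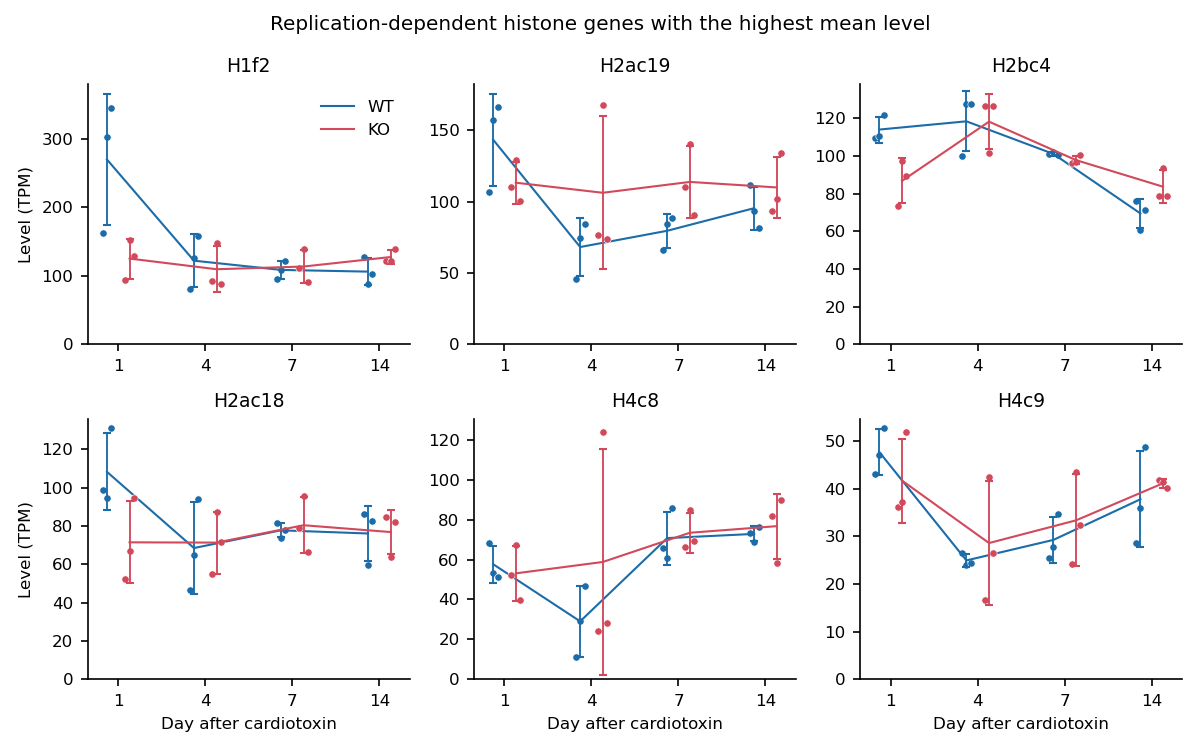
Levels (TPM, linear axes from 0) of the 6 replication-dependent genes with the highest mean, by day after CTX, with days spaced evenly. Points are libraries, lines join group means and bars are SD (n = 3), with WT in blue and KO in red. H1f2 and H2ac19 were higher in every WT library at D1 than in every WT library at D4, and H2bc4 was lower in every D14 library than in every D4 and D7 library of its genotype.

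The replacement variants of H3, H3f3a and H3f3b, encode the same H3.3 protein and were among the highest members. H3f3a was at 353, 463 and 264 TPM in the WT libraries at D1, 752, 570.3 and 377 TPM at D4, 482, 400.2 and 401 TPM at D7 and 294, 316 and 249 TPM at D14. KO muscle held H3f3a at 478, 349 and 550.2 TPM at D1, 569.7, 259 and 519.7 TPM at D4, 408, 271 and 379.9 TPM at D7 and 278, 318 and 291 TPM at D14. Control muscle held H3f3a at 244, 238 and 227 TPM. H3f3a overlapped between D1 and D4, and in WT muscle all D14 values lay below all D4 and D7 values. H3f3b was at 158, 290.3 and 104 TPM in the WT libraries at D1, 267, 158 and 122 TPM at D4, 111, 92.9 and 89.02 TPM at D7 and 50.1, 50.9 and 36.1 TPM at D14. KO muscle held H3f3b at 234, 152 and 277 TPM at D1, 145, 45.7 and 111 TPM at D4, 99.2, 53.3 and 84.6 TPM at D7 and 48.1, 55.5 and 49.7 TPM at D14. Control muscle held H3f3b at 34.2, 33.1 and 35.4 TPM. H3f3b was above every control and D14 level in all D1 libraries. The ratio of H3f3a to H3f3b within a library, which no scaling of the library alters, was 1.60 to 2.54 in WT and 1.98 to 2.30 in KO muscle at D1. It was 2.82 to 3.60 and 3.93 to 5.66 at D4, 4.31 to 4.51 and 4.12 to 5.08 at D7, and 5.88 to 6.91 and 5.72 to 5.87 at D14, in WT and KO respectively. Control muscle had a ratio of 6.43 to 7.20. The ratio was higher, with no overlap of the libraries, at D4 than at D1 and at D14 than at D7 in each genotype, and the D4 values of KO lay above those of WT. No test was run on the ratio, and these ranges are a description.

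H2az1 and H2az2 encode H2A.Z, a variant found at promoters. H2az1 was at 222, 351 and 156 TPM in the WT libraries at D1, 444, 224 and 148 TPM at D4, 186, 158 and 165 TPM at D7 and 87.7, 108 and 98.5 TPM at D14. KO muscle held H2az1 at 296, 208 and 325 TPM at D1, 212, 113 and 189 TPM at D4, 146, 119.5 and 149 TPM at D7 and 91.9, 111 and 106 TPM at D14. Control muscle held H2az1 at 104, 87.9 and 96.8 TPM. H2az1 spread widely at D1 and D4 and was near the control level at D14. H2az2 was at 33.2, 32.8 and 34.5 TPM in the WT libraries at D1, 59.6, 48.6 and 45.02 TPM at D4, 43.3, 40.3 and 44.4 TPM at D7 and 38.6, 37.5 and 31.1 TPM at D14. KO muscle held H2az2 at 27.3, 33.2 and 29.9 TPM at D1, 52.5, 44.1 and 47.9 TPM at D4, 35.2, 40.3 and 41.4 TPM at D7 and 31.9, 36.4 and 37.2 TPM at D14. Control muscle held H2az2 at 29.4, 26.5 and 27.6 TPM. For H2az2 the D1 libraries of each genotype all lay below those of D4. H2ax, whose phosphorylated protein marks DNA breaks and whose mRNA carries the stem-loop shown above, was highest early. H2ax was at 30.96, 52.3 and 28.6 TPM in the WT libraries at D1, 50.9, 25.96 and 27.2 TPM at D4, 22.4, 17.5 and 17.95 TPM at D7 and 8.04, 8.42 and 6.13 TPM at D14. KO muscle held H2ax at 37.4, 27.2 and 41.2 TPM at D1, 29.1, 10.3 and 21.7 TPM at D4, 17.9, 13.2 and 14.8 TPM at D7 and 6.98, 9.72 and 8.79 TPM at D14. Control muscle held H2ax at 7.21, 7.47 and 6.92 TPM. Each D14 library lay below each library of the earlier days in its genotype.

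MacroH2A variants carry a large extra domain and are linked to silent chromatin. Macroh2a1 was at 69.3, 100.5 and 56.04 TPM in the WT libraries at D1, 96.8, 63.6 and 63.7 TPM at D4, 55.4, 44.5 and 43.1 TPM at D7 and 40.7, 35.2 and 32.4 TPM at D14. KO muscle held Macroh2a1 at 93.9, 77.1 and 89.2 TPM at D1, 61.3, 44.8 and 55.4 TPM at D4, 50.6, 56.2 and 47.4 TPM at D7 and 36.4, 39.97 and 35.2 TPM at D14. Control muscle held Macroh2a1 at 43.5, 38.7 and 42.01 TPM. Macroh2a1 was lowest at D14, and in KO muscle all D1 values lay above the later ones. Macroh2a2 was at 2.28, 3.67 and 1.54 TPM in the WT libraries at D1, 9.61, 6.47 and 6.69 TPM at D4, 4.94, 3.92 and 3.03 TPM at D7 and 1.51, 1.97 and 0.74 TPM at D14. KO muscle held Macroh2a2 at 3.71, 2.51 and 3.04 TPM at D1, 6.65, 2.24 and 3.59 TPM at D4, 4.60, 1.52 and 3.45 TPM at D7 and 1.19, 1.99 and 1.89 TPM at D14. Control muscle held Macroh2a2 at 0.76, 0.64 and 1.10 TPM. The WT D4 libraries held the highest Macroh2a2 group mean, and KO D4 replicate 1 lay within their range.

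H1f0, the linker histone that accumulates in cells that have stopped dividing, peaked at D4 in WT muscle. H1f0 was at 64.9, 94.2 and 102 TPM in the WT libraries at D1, 128, 146 and 143 TPM at D4, 117, 107 and 109.6 TPM at D7 and 83.1, 63.6 and 59.7 TPM at D14. KO muscle held H1f0 at 65.96, 55.95 and 61.4 TPM at D1, 104, 65.3 and 94.8 TPM at D4, 111, 88.3 and 92.6 TPM at D7 and 64.00, 74.2 and 75.1 TPM at D14. Control muscle held H1f0 at 62.2, 53.7 and 62.8 TPM. All WT D4 values lay above all other libraries of the series. H1f10 was at 1.08, 2.21 and 1.16 TPM in the WT libraries at D1, 5.26, 6.19 and 4.62 TPM at D4, 3.21, 2.64 and 1.30 TPM at D7 and 0.83, 0.27 and 0.44 TPM at D14. KO muscle held H1f10 at 2.03, 2.09 and 1.90 TPM at D1, 5.37, 0.81 and 3.52 TPM at D4, 1.69, 1.51 and 1.85 TPM at D7 and 0.22, 0.65 and 0.57 TPM at D14. Control muscle held H1f10 at 0.43, 0.61 and 0.28 TPM. H1f10, another linker variant, was low, its WT D4 values lay above all other WT values, and KO D4 replicate 2 was below the other KO D4 libraries. H1f9 was at 0.68, 0.41 and 1.08 TPM in the WT libraries at D1, 1.41, 0.96 and 1.23 TPM at D4, 3.23, 2.04 and 2.11 TPM at D7 and 1.66, 2.63 and 3.33 TPM at D14. KO muscle held H1f9 at 0.80, 1.30 and 0.95 TPM at D1, 1.18, 2.06 and 1.17 TPM at D4, 1.76, 1.71 and 2.85 TPM at D7 and 2.35, 2.99 and 1.87 TPM at D14. Control muscle held H1f9 at 1.12, 1.34 and 1.42 TPM. H1f9 stayed at or below 3.33 TPM, and its reads cannot be separated from those of Sgca.

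**Figure D3:**
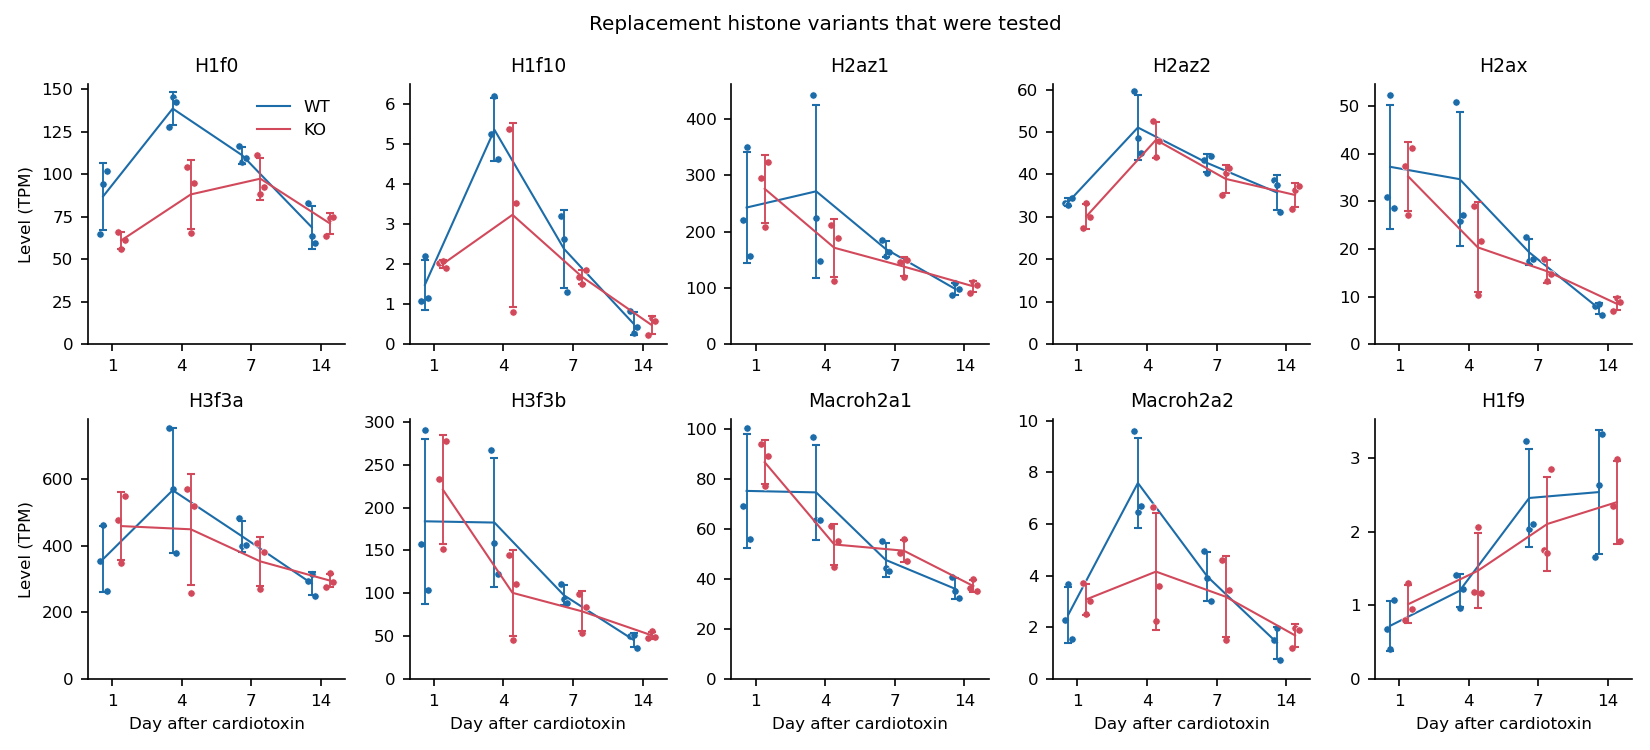
Levels (TPM, linear axes from 0) of the 10 replacement variants that were tested, by day after CTX, with days spaced evenly. Points are libraries, lines join group means and bars are SD (n = 3), with WT in blue and KO in red. H1f0 was at 128 to 146 TPM in WT muscle at D4, above all other libraries, and H2ax and H3f3b had their lowest group means at D14.

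The response to injury was read from the control table, in which 28 members were tested, 18 replication-dependent and 10 replacement. Levels were compared as mean log2(TPM + 1) with limma, and a gene was called where the Benjamini-Hochberg adjusted p over all genes tested was under 0.05. At D1, 16 members were called higher than in control muscle and none lower, 9 replication-dependent and 7 replacement, beside 61.1% of all 13041 genes tested (7229 higher and 736 lower). H4c17, H2ac6, H2ac24, H2bc15 and H1f10 reached 1 TPM only in the 3 D1 libraries and so entered the test through the group in which they are high, and their values are given as a description. Of the other 23 members, 11 were called, 5 of 14 replication-dependent genes and 6 of 9 replacement variants. Macroh2a2, among these 6, and H2bc11, not called, reached 1 TPM in a single control library each (1.10 and 1.61 TPM). They too needed the D1 libraries to pass the filter. The largest replacement difference was that of H3f3b, which rose from 34.2, 33.1 and 35.4 TPM in the controls to 157, 289 and 103 TPM (log2 difference 2.26 ± 0.33 SE, adjusted p = 0.00194). H2ax rose from 7.21, 7.47 and 6.92 to 30.99, 52.3 and 28.6 TPM (log2 difference 2.17 ± 0.24 SE, adjusted p = 0.0011). Neither gene had overlapping groups. H2az1 (log2 difference 1.25 ± 0.28 SE), Macroh2a1 and H3f3a (0.57 ± 0.22 SE, adjusted p = 0.0492) were also called, while H1f0 (0.52 ± 0.20 SE), H2az2 (0.26 ± 0.15 SE) and H1f9 (-0.42 ± 0.21 SE) were not. As a description, Macroh2a2 was at 0.76, 0.64 and 1.10 TPM in control and 2.28, 3.67 and 1.54 TPM at D1.

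Among the replication-dependent genes, H1f2 rose from 90.9, 95.2 and 106 to 163, 303 and 345 TPM (log2 difference 1.40 ± 0.27 SE, adjusted p = 0.00415). H3c15, an H3 gene, rose from 4.52, 6.42 and 5.67 to 11.2, 28.8 and 26.5 TPM (log2 difference 1.73 ± 0.34 SE, adjusted p = 0.0043). No control library reached a D1 library in either gene. H4c17 was listed at 0 in the 3 control libraries and at 12.2, 20.2 and 23.5 TPM at D1, and its near-identical copy H4c18 was at 5.65, 2.82 and 7.66 TPM in control and 2.99, 7.09 and 4.01 TPM at D1. H2bc15 was likewise listed at 0 in all control libraries and at 1.33, 2.28 and 2.25 TPM at D1. H2ac24 and H2ac6 were at 0 to 0.40 TPM in control and 1.58 to 3.73 TPM at D1. Of the genes that did not depend on D1 to pass the filter, H1f4, H2ac19 and H2bc4 were also called. H4c8 (-0.01 ± 0.18 SE), H4c9 (0.54 ± 0.24 SE) and H2ac18 (0.15 ± 0.17 SE) were not called. Summed leukocyte markers were at 172 to 223 TPM in control and 1057 to 5231 TPM at D1, with 13 of 13 markers called higher, 3 of 4 myogenic and 4 of 7 fibro-adipogenic progenitor markers were called higher and 4 of 12 myofibre markers lower, and summed myofibre markers were at 175712 to 191938 TPM and 88500 to 181643 TPM. Their part in the histone levels was not tested. The median log2 difference was 0.67 for the replication-dependent genes (0.40 without the 4 that reached 1 TPM only at D1), 0.79 for the replacement variants (0.81 without H1f10) and 0.66 for all genes tested. The split of 16 higher and 0 lower calls became 7 and 4 under median-of-ratios scaling, 8 and 4 under quantile normalization and 13 and 4 with the 50 most abundant genes removed, and under median-of-ratios scaling the median of all genes was -0.01 and the differences of H2bc4, H3f3a and H2ac19 were -0.04, -0.23 and -0.03. H3f3b and H2ax kept their calls without any single library and under every other setting run. H2az1, H1f2, H2bc4, H1f4 and H3c15 kept theirs without any single library, but under median-of-ratios scaling H1f2 was at 0.60 (adjusted p = 0.132) and H2az1 at 0.46 (adjusted p = 0.102), and under quantile normalization H3c15 was at 0.94 (adjusted p = 0.0699) and H1f4 at 0.012 (adjusted p = 0.957), none of them called. H3f3a was not called when any one of 5 of the 6 libraries was left out (adjusted p from 0.104 to 0.134), H2ac19 without control replicate 1 or 3, Macroh2a2 without control replicate 1 or 2, and Macroh2a1 without control replicate 2. Without WT D1 replicate 2, 10 of 23 members tested were called.

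**Figure D4:**
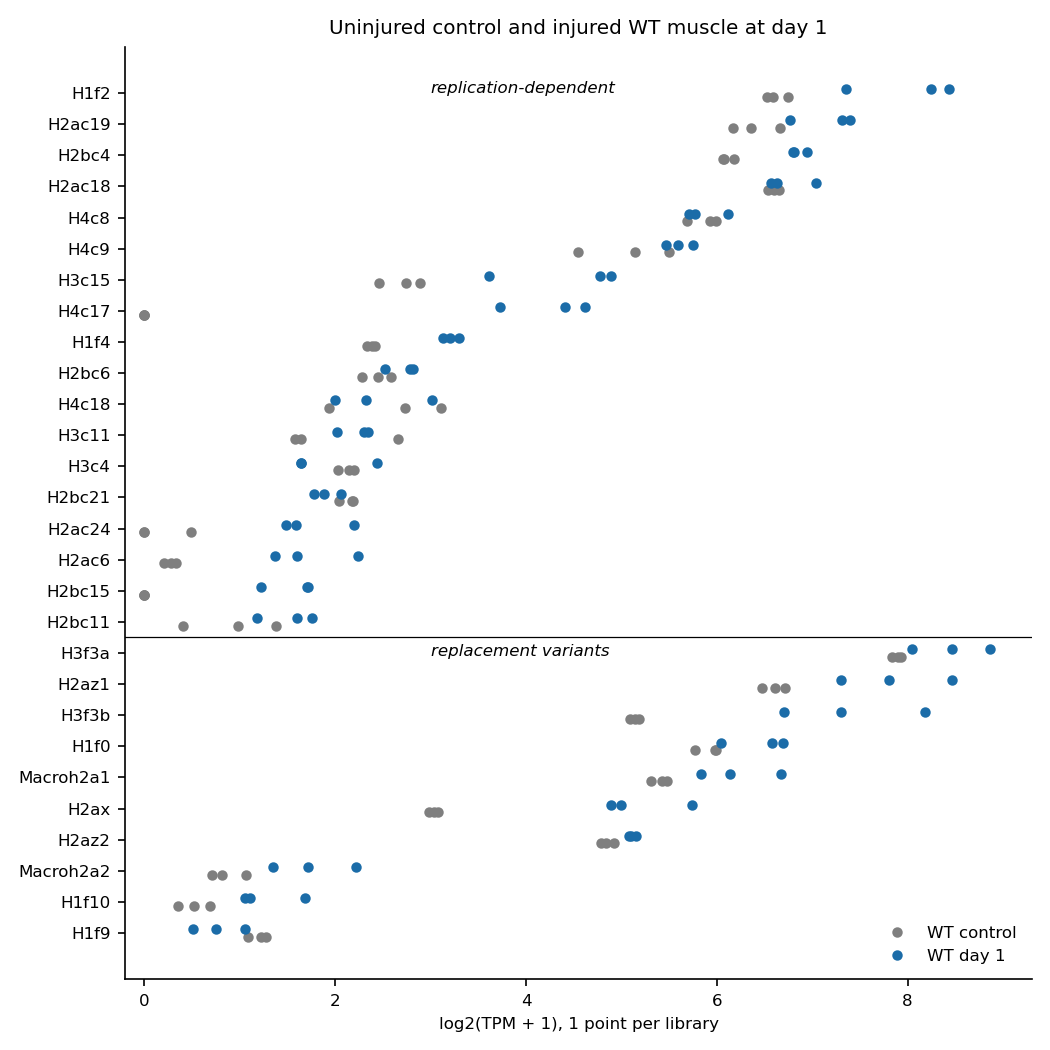
Levels of the 28 histone genes tested in the control table, as log2(TPM + 1) on a horizontal axis, with 1 point per library (grey, WT control, n = 3, and blue, WT D1, n = 3). H3f3b and H2ax stand clear of the control libraries among the replacement variants, and H4c17 and H2bc15 were listed at 0 in every control library.

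From D1 to D4 in WT muscle, of the 39 tested members, 5 rose and 9 fell, beside 19.8% of all 15718 genes called (2292 higher and 828 lower). All 9 that fell were replication-dependent, 4 of the 5 that rose were replacement variants, and 19 of the 29 replication-dependent genes and 6 of the 10 replacement variants were not called. A difference between the classes was not tested. Batch and day cannot be told apart in this step if the WT D1 libraries were sequenced with the controls. H2ac6, 1 of the 9, reached 1 TPM only in D1 libraries of either genotype, so that it passed the filter through the day on which it is high. H2ac24, another of the 9, reached 1 TPM outside D1 only in WT D4 replicate 3 (1.49 TPM), so that it too needed D1 to pass. H4c17 fell from 12.2, 20.2 and 23.5 TPM to 1.85, 2.82 and 5.73 TPM (log2 difference -2.18 ± 0.48 SE, adjusted p = 0.00329). H1f4, a linker histone, fell from 7.77, 8.82 and 8.20 TPM to 1.75, 2.95 and 3.44 TPM (log2 difference -1.35 ± 0.32 SE, adjusted p = 0.00554). No D1 library overlapped a D4 library in either gene. As a description, H2ac6 was at 2.03, 3.73 and 1.58 TPM at D1 and 0.48, 0.43 and 0.36 TPM at D4. H2ac24 was at 2.00, 3.58 and 1.79 TPM at D1 and 0, 0.79 and 1.49 TPM at D4. The other members that fell were H3c15 (-1.14 ± 0.31 SE), H1f2 (-1.12 ± 0.28 SE), H2ac19 (-1.08 ± 0.28 SE), H2bc6 (-1.01 ± 0.23 SE) and H4c9 (-0.91 ± 0.26 SE). H1f10 (log2 difference 1.38 ± 0.33 SE, adjusted p = 0.00562), Macroh2a2 (1.32 ± 0.32 SE, adjusted p = 0.00677), H1f0 (0.69 ± 0.18 SE) and H2az2 (0.58 ± 0.13 SE) rose. The replication-dependent gene that rose was H2bc8, from 0.51, 1.11 and 1.08 TPM to 3.75, 2.75 and 2.81 TPM (log2 difference 1.12 ± 0.34 SE, adjusted p = 0.0252). The median difference was -0.59 for the 29 replication-dependent genes (-0.53 without H2ac6), 0.47 for the 10 replacement variants and 0.17 for all genes.

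Over the same step, 8 of 9 markers of myogenic cells rose, with sums of 114 to 175 TPM at D1 and 1212 to 1875 TPM at D4, and 6 of 12 myofibre markers fell. Of the fibro-adipogenic progenitor markers 4 of 7 rose, with sums of 1383 to 2371 TPM at D1 and 6794 to 7501 TPM at D4. Leukocyte sums were 1056 to 5225 TPM at D1 and 2981 to 6447 TPM at D4. The part of these cell types in the histone levels was not tested. H4c17, H1f4, H2bc6, H1f10, Macroh2a2 and H2az2 kept their calls without any single library. H1f2 lost its call without WT D1 replicate 3 (log2 difference -0.91, adjusted p = 0.0564) and without WT D4 replicate 1 (-0.85, adjusted p = 0.0558). H2ac19 lost its call without the same libraries (adjusted p = 0.0544 and 0.0698), and H1f0 lost its call without WT D1 replicate 1 (adjusted p = 0.072). H3c15 was lost without WT D1 replicate 2 or 3, H4c9 without WT D1 replicate 3 or WT D4 replicate 2, H2bc8 without WT D1 replicate 1 or WT D4 replicate 1, and H2ac24 without WT D1 replicate 2, WT D4 replicate 1 or WT D4 replicate 2, with adjusted p from 0.0539 to 0.173. With only the WT D1 and D4 libraries in the fit, 7 members were called.

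In KO muscle, 2 members rose and 6 fell from D1 to D4, beside 19.4% of all genes called (1128 higher and 1921 lower). H2az2 rose from 27.3, 33.2 and 29.9 TPM to 52.5, 44.1 and 47.9 TPM (log2 difference 0.66 ± 0.13 SE, adjusted p = 0.00187) and H2bc4 from 73.7, 97.2 and 89.6 TPM to 126, 102 and 127 TPM (0.44 ± 0.13 SE, adjusted p = 0.0269). Both genes had D4 libraries above all D1 libraries. H4c17 (log2 difference -1.43 ± 0.48 SE, adjusted p = 0.0434), H3f3b (-1.23 ± 0.39 SE, adjusted p = 0.0349) and H4c18 (-1.22 ± 0.42 SE, adjusted p = 0.0498) fell. Macroh2a1 (-0.68 ± 0.19 SE) fell as well. H2ac6 and H2ac24, counted among the 6, are given as a description for the reason given above. H2ac6 was at 1.41, 2.09 and 0.81 TPM at D1 and 0.23, 0.21 and 0.16 TPM at D4. H2ac24 was at 1.22, 1.95 and 2.48 TPM at D1 and 0.92, 0 and 0 TPM at D4. H1f2 had a difference of -0.20 ± 0.28 SE (adjusted p = 0.626) and H2ac19 of -0.19 ± 0.28 SE (adjusted p = 0.65), and neither was called. The median difference was -0.16 for the replication-dependent genes (-0.09 without H2ac6), 0.08 for the replacement variants and -0.15 for all genes. Over this step 6 of 13 leukocyte markers fell (sums of 3822 to 7967 TPM at D1 and 499 to 4107 TPM at D4), and 4 of 9 myogenic markers (112 to 135 TPM and 56.1 to 990 TPM) and 4 of 7 fibro-adipogenic progenitor markers (1521 to 1967 TPM and 1896 to 7667 TPM) rose. Their part in the histone levels was not tested. H2az2 kept its call without any single library. H2bc4 and H4c17 were each called in only 2 of the 6 fits with a library left out (adjusted p up to 0.133 and 0.193), and H4c18 in 1. H3f3b and Macroh2a1 were called in 3 of the 6. Without KO D4 replicate 2, 8 members were called, and H3f3b (log2 difference -0.75, adjusted p = 0.192), Macroh2a1 (-0.56, adjusted p = 0.0805), H4c18 (-1.18, adjusted p = 0.112) and H2ac24 (-1.03, adjusted p = 0.0621) were not among them. The number of members called was 3 without KO D1 replicate 1, 2 without KO D1 replicate 3, and 5 without KO D4 replicate 3, and with only the KO D1 and D4 libraries in the fit it was 0.

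From D4 to D7 few members were called. Of all genes tested, 478 were called higher and 1463 lower in WT muscle over this step. In WT muscle, H4c8 rose from 11.3, 28.9 and 46.7 TPM to 65.6, 60.8 and 85.9 TPM (log2 difference 1.45 ± 0.47 SE, adjusted p = 0.0479) and H2bc6 from 1.26, 2.85 and 2.95 TPM to 4.61, 4.91 and 4.75 TPM (0.82 ± 0.23 SE, adjusted p = 0.0301), while Macroh2a1 fell (-0.62 ± 0.19 SE, adjusted p = 0.0448), beside 12.3% of all genes called. Each of these calls was lost without WT D4 replicate 1 (adjusted p = 0.268, 0.185 and 0.243), and no member was called without WT D4 replicate 1, WT D7 replicate 2 or WT D7 replicate 3. Over this step in WT muscle 4 of 9 myogenic markers fell, with sums of 194 to 524 TPM at D7, and their part in the histone levels was not tested. In KO muscle no member was called with limma, beside 0% of all genes, and 4 had an unadjusted p under 0.05 against 9.89% of all genes. Without KO D4 replicate 2, 5 members were called in this step.

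From D7 to D14 in WT muscle, 7 members fell and none rose, beside 31.8% of all genes called (145 higher and 4855 lower). They were 5 replacement variants and 2 replication-dependent genes. H2ax fell from 22.4, 17.5 and 17.95 TPM to 8.04, 8.42 and 6.13 TPM (log2 difference -1.25 ± 0.31 SE, adjusted p = 0.0107). H1f10 (-1.13 ± 0.33 SE, adjusted p = 0.0181) and H3f3b (-1.09 ± 0.39 SE, adjusted p = 0.0423) followed by size. None of the 3 genes had overlapping groups. Macroh2a2 (-1.06 ± 0.32 SE), H2ac7 (-0.86 ± 0.23 SE), H1f0 (-0.70 ± 0.18 SE) and H2bc4 (-0.54 ± 0.13 SE, adjusted p = 0.0106) fell as well, and the difference of H2bc4 was 0.04 under median-of-ratios scaling. The median difference was -0.13 for the replication-dependent genes, -0.74 for the replacement variants and -0.45 for all genes. Leukocyte markers summed to 1478 to 2034 TPM at D7 and 181 to 628 TPM at D14, with 10 of 13 called lower, 6 of 9 myogenic, 4 of 7 fibro-adipogenic progenitor and 4 of 6 endothelial markers were called lower as well, and their part in the histone levels was not tested. No member was called without WT D7 replicate 1 or without WT D14 replicate 3, 4 were called without WT D7 replicate 2, and H3f3b was not called whichever single library of these groups was left out (adjusted p from 0.0589 to 0.156). With all libraries, 3 members were called under median-of-ratios scaling and 2, 1 in each direction, under quantile normalization. In KO muscle no member was called with limma, beside 0.56% of all genes. The 4 members with an unadjusted p under 0.05, against 19.3% of all genes, were H1f10, H2ax, Macroh2a1 and H1f0.

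The comparison of KO with WT muscle within a day asks whether loss of gasdermin E alters these genes during repair. No histone gene was called on any day, beside 0.00636% of all genes called at D1 and 0% at D4, D7 and D14. At D1, 12 members had an unadjusted p under 0.05 in limma (5.38% of all genes), of which 9 replication-dependent genes and H1f0 were lower in KO muscle and H4c12 and H2ac11 were higher. H2ac11 reached 1 TPM in 4 libraries, among them KO D1 replicates 1 and 3 (1.69 and 1.53 TPM), so that it passed the filter through its high group. H2ac6, among the lower genes, reached 1 TPM only at D1. H2bc15 and H2ac7, also among the lower genes, reached 1 TPM in a single KO library each (1.43 TPM at D14 and 1.01 TPM at D4). They passed the filter through WT muscle, the group in which they are high. H2bc15 was at 1.46, 2.68 and 2.24 TPM in WT and 0, 0.46 and 0 TPM in KO muscle (log2 difference -1.44 ± 0.33 SE, adjusted p = 0.628 in limma). For H1f2 the difference was -1.06 ± 0.28 SE (adjusted p = 0.788), and for H3c15 it was -1.01 ± 0.31 SE (adjusted p = 0.864). H2bc4 was at 109.8, 110.5 and 122 TPM in WT and 73.7, 97.2 and 89.6 TPM in KO muscle (log2 difference -0.40 ± 0.13 SE, adjusted p = 0.873). Among these 12, the KO and WT libraries did not overlap at D1 in H1f2, H2bc4, H2bc15, H2ac7 and H3c11, lower in KO, and in H4c12 and H2ac11, higher in KO. The share of all genes without overlap was not counted. The median difference was -0.32 for the replication-dependent genes, 0.24 for the replacement variants and 0.09 for all genes, and 20 of the 29 replication-dependent genes were lower in KO. Leukocyte markers were higher in KO at D1 in 13 of 13 cases (median 0.88, none called), with summed levels of 1056 to 5225 TPM in WT and 3822 to 7967 TPM in KO muscle, and their part in the histone values was not tested.

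At D4, 11972 of all 15718 genes tested were lower in KO muscle (median -0.28). Of the members, 9 had an unadjusted p under 0.05, all lower in KO, against 22.7% of all genes, and none was called. They were 6 replacement variants and the 3 replication-dependent genes H4c18, H2ac7 and H2bc15. H2ac7 and H2bc15 reached 1 TPM in a single KO library each (1.01 TPM at D4 and 1.43 TPM at D14). They passed the filter through WT muscle, in which they are high. H1f0 was at 128, 146 and 143 TPM in WT and 104, 65.3 and 94.8 TPM in KO muscle (log2 difference -0.67 ± 0.18 SE, adjusted p = 0.212), with no overlap. H3f3b (-0.93 ± 0.39 SE), Macroh2a2 (-0.81 ± 0.32 SE), H2ax (-0.78 ± 0.31 SE), H1f10 (-0.76 ± 0.33 SE) and Macroh2a1 (-0.45 ± 0.19 SE) were the other replacement variants. Without KO D4 replicate 2, 3 members had an unadjusted p under 0.05, and the differences of H1f0, H3f3b and H2ax were -0.47, -0.44 and -0.38. The 9 myogenic markers and the 13 leukocyte markers were all lower in KO muscle at D4 (medians -1.64 and -1.18), none of them called, and their part in the histone values was not tested. The median of the replication-dependent genes was -0.10, 0.12 when libraries were scaled by median-of-ratios and 0.10 when they were quantile-normalized. At D7 and D14 no member had an unadjusted p under 0.05, against 3.06% and 2.06% of all genes. Averaged over the days, none was called (0.00636% of all genes), and H2bc15, H2ac7 and H1f0 had an unadjusted p under 0.05, against 3.54% of all genes. H2bc15 and H2ac7 entered this comparison, too, through WT muscle. The F test of whether the genotype difference varies between days called none of the members, beside 0% of all genes, and 8 had an unadjusted p under 0.05 against 7.65% of all genes. The lowest adjusted p among the members was 0.527, shared by H1f2 and other members, so that the courses of WT and KO muscle were not shown to differ for any histone gene.

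**Figure D5:**
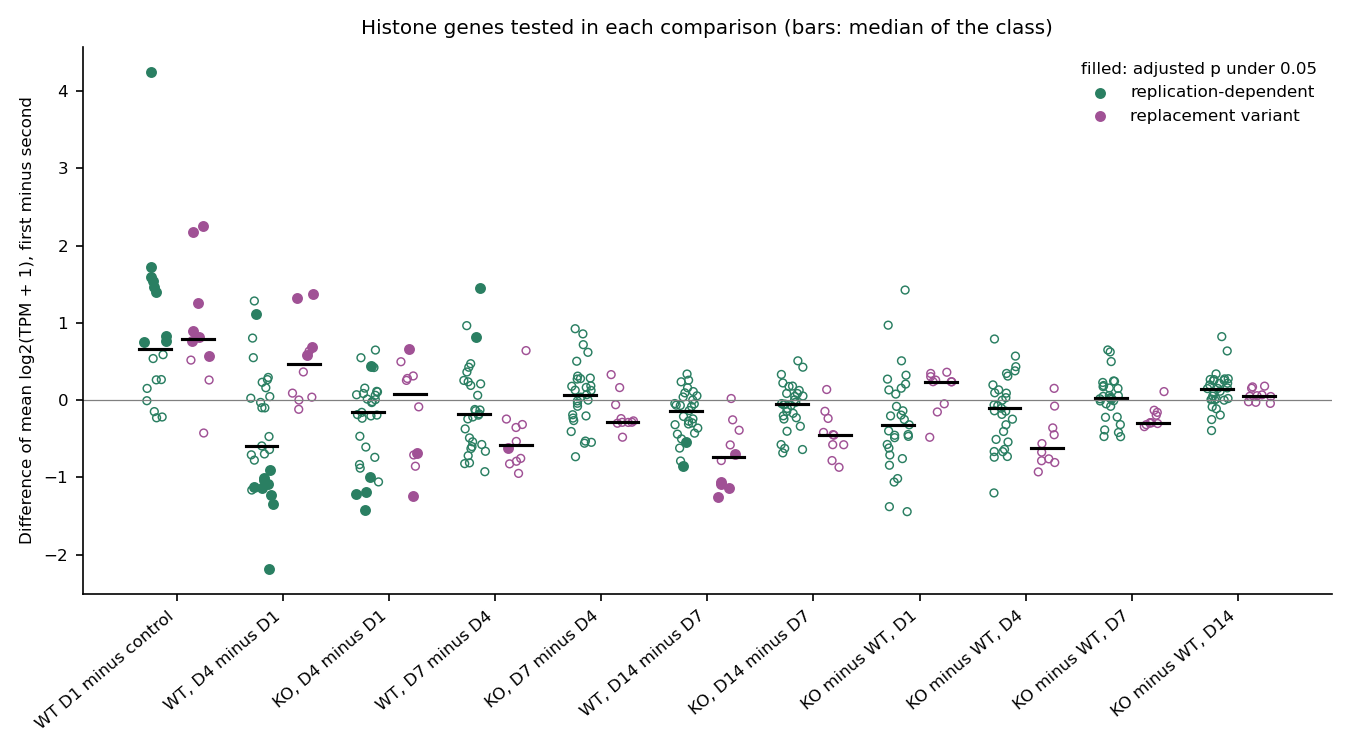
Difference of mean log2(TPM + 1), first group minus second, for each histone gene tested in each comparison (vertical axis, log2 units). Green points are replication-dependent genes, purple points are replacement variants, filled points were called (limma, adjusted p under 0.05) and black bars are class medians. Filled points include 5 genes and Macroh2a2 in the control comparison, and H2ac6 and H2ac24 from D1 to D4, all of which passed the filter through D1. In WT muscle from D1 to D4 the replication-dependent median was -0.59 (-0.53 without H2ac6) and the replacement median 0.47. No point was filled in the comparisons of KO with WT.

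The genes that make and use histones were compared as lists. The list of histone mRNA transcription and 3′ end processing holds 14 genes, among them Slbp, Npat and the U7 components Lsm10 and Lsm11. In the control comparison 8 of its 11 tested genes rose and none fell, beside 61.1% of all genes called, led by Slbp (log2 difference 1.84 ± 0.33 SE, adjusted p = 0.00325), Lsm10 (1.44 ± 0.17 SE) and Cstf2 (1.37 ± 0.29 SE). From D7 to D14 in WT muscle 6 of 13 fell, beside 31.8% of all genes called, led by the same 3 genes, with Slbp at -1.16 ± 0.41 SE (adjusted p = 0.0401). No gene of this list was called in the other steps or between genotypes. Of the 25 genes listed under histone chaperones and deposition, 21 rose in the control comparison (61.1% of all genes called). Asf1b (log2 difference 2.73 ± 0.41 SE, adjusted p = 0.00208), Cenpa and Chaf1b led them. Cenpa is itself a histone gene outside the rule, and Chaf1b encodes a subunit of the assembly factor that follows the replication fork. In WT muscle 1 rose from D1 to D4, Hjurp (1.27 ± 0.39 SE), 1 fell from D4 to D7, Ipo4 (-0.75 ± 0.21 SE), and 13 fell from D7 to D14 (31.8% of all genes called). In KO muscle 9 fell from D1 to D4 (19.4% of all genes called, 1128 higher and 1921 lower), with Nasp at -1.20 ± 0.40 SE (adjusted p = 0.0426).

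The DNA replication list was set beside the replication-dependent genes. In the control comparison 27 of its 28 tested genes rose, beside 61.1% of all genes called, led by Mcm5 (log2 difference 3.43 ± 0.39 SE, adjusted p = 0.00121), Tyms and Ccna2. The median of the list was 1.89, against 0.67 for the replication-dependent histone genes (0.40 without those that reached 1 TPM only at D1). From D1 to D4 in WT muscle no gene of the list was called with limma and 0 of 30 had an unadjusted p under 0.05. The median of the list was 0.07, while the replication-dependent histone genes had a median of -0.59 (-0.53 without H2ac6). From D4 to D7 in WT muscle 2 fell, Cdt1 (-1.31 ± 0.41 SE) and Cdc6 (-0.85 ± 0.27 SE), and from D7 to D14 15 of 30 fell (31.8% of all genes called), led by Ccna2 (-2.70 ± 0.58 SE, adjusted p = 0.00709). In KO muscle 12 of 30 fell from D1 to D4 (19.4% of all genes called, 1128 higher and 1921 lower), led by Rrm2 (-1.92 ± 0.57 SE, adjusted p = 0.0261), and none was called in later steps. The summed list was at 249 to 711 TPM in WT muscle at D1, 277 to 743 TPM at D4, 189 to 283 TPM at D7 and 81.5 to 97.2 TPM at D14, against 81.2 to 89.4 TPM in control muscle. At D4 its WT values lay above all control values, when the replication-dependent histone sum (374 to 590 TPM) overlapped that of the control libraries (431 to 497 TPM), which were quantified separately. The 59 replication-dependent genes outside the leading 6 did not overlap in their sum. It was 50.97 to 62.55 TPM in WT muscle at D4 and 34.06 to 44.22 TPM in control muscle. Between genotypes no gene of the 3 lists was called on any day. At D4 the median difference of KO minus WT was -0.28 for all genes. All 30 DNA replication genes were lower in KO muscle (median -0.90, 18 with an unadjusted p under 0.05 in limma, 22.7% of all genes), while the replication-dependent histone genes had a median of -0.10. KO D4 replicate 2 had the lowest sum of this list at D4 (109 TPM).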

How the data were processed

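Bulk RNA-seq of mouse muscle was analysed in 27 libraries. The authors deposited TPM values per gene in a table of the 24 injured libraries and a table of the 3 control libraries with the 3 WT D1 libraries, and the submitters' notes name the mm10 build. The aligner and counter were not given in the sources used here. The deposited columns of group means were used only as a check and equal the means of the libraries to rounding. Groups came from the sample labels. Members and gene lists were chosen with earlier results of these data known.

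Genes with at least 1 TPM in at least 3 libraries were tested on log2(TPM + 1) with limma 3.58.1 (R 4.3.3), a model of group means, moderated variances with a trend, contrasts and Benjamini-Hochberg adjustment over all genes tested in a table. The scripts were tested on simulated data. TPM keeps no read number, so that the depth is unknown and no counting interval was given. The 3 libraries of a group are not stated to come from separate animals in the labels, so that p-values measure the spread between these samples. Tables were tested separately, and control values beside later days are set side by side only.

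Values in every library are given for the replacement variants that were tested and for the 6 replication-dependent genes with the highest mean. In each comparison up to 3 called members per direction with the largest difference, and of each other list up to 3 called genes, were chosen for description, and other called members are listed. Where further members are named, they were chosen after their values were seen. Replicate numbers are shared between groups. Deviations from the group means of same-numbered libraries correlated above 0.1 in all 3 pairs only for KO D1 with D4 (0.19 to 0.38) and KO D4 with D7 (0.13 to 0.44), and the pairing of injured libraries has no other source. The study names the contralateral muscle as control, so that control and WT D1 libraries may come from the same mice. The main test treated these groups as independent, and their same-numbered deviations correlated at 0.0021 to 0.0611. Sequences came from GENCODE and RefSeq and were searched with Biopython 1.88. Alternatives were another pseudocount, no or a stricter filter, median-of-ratios scaling, quantile normalization, removal of the 50 most abundant genes, library weights, a replicate block, each library left out and a fit of only the groups compared.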

Additional observations from a re-analysis of the deposited data

How the results depend on the processing

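Of the 13 counts of called members, 200 recomputed values stayed within 1.5 times and 28 did not, and of 72 results on single genes 902 values kept direction and side of the threshold, 164 were no longer called and 4 changed direction. In WT muscle from D1 to D4, 14 members were called, 7 with only the groups compared and 10 to 19 with a library left out. From D4 to D7 in WT, 3 were called, 1 each with no filter, median-of-ratios scaling, quantile normalization and only the groups compared, 27 with library weights and 0 to 3 with a library left out. From D7 to D14 in WT, 7 were called, 3 with median-of-ratios scaling, 2 with quantile normalization, 4 with the 50 most abundant genes removed, 15 with library weights and 0 to 6 with a library left out. In KO muscle from D1 to D4, 8 were called, 5 with no filter and 5 with a minimum of 5 TPM, 0 with only the groups compared and 2 to 9 with a library left out. In KO from D4 to D7 the range with a library left out was 0 to 5, and from D7 to D14 14 were called with library weights and 1 with only the groups compared. Library weights gave 1 call between genotypes at D7. The control comparison gave 16 calls and 10 to 14 with a library left out, and 24 with library weights. Under median-of-ratios scaling H2bc4 changed direction from D7 to D14 in WT (0.036), as did H2bc4 (-0.045), H3f3a (-0.23) and H2ac19 (-0.033) in the control comparison. The cause of these changes was not tested. With the replicate block, 15, 3 and 7 members were called in the 3 WT steps, 7 and 0 in KO from D1 to D4 and D4 to D7, 16 in the control comparison and 0 in every other comparison, so that no count moved by over 1.5 times. Depth is unknown, and levels near 1 TPM are the least certain.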
